A study of Homo sapiens with 4 samples.

Results

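The cells described here are HeyA8-MDR control cells, and their baseline transcriptome was read from 2 of the 4 arrays of the study, those titled with the cell line alone. HeyA8-MDR is an established human ovarian carcinoma line, the multidrug-resistant derivative of HeyA8, and the labels give no genotype for it. Per the growth protocol, the line was kept in RPMI medium with 15% serum, 0.1% gentamicin sulfate and 300 ng/ml paclitaxel, a taxane that binds and stabilises microtubules. The design text names a control microRNA inhibitor and an inhibitor of miR-204-5p, short oligonucleotides that bind and block a mature microRNA. The treatment note of the control samples itself names the miR-204-5p inhibitor, as it does for the whole study, so the control status rests on the titles read together with the design text. Whether paclitaxel was present during the transfection, and how long that lasted, is not stated in the labels.

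Total RNA was extracted with Trizol and read on Affymetrix Human Clariom S arrays, which sum several short probes into 1 log2 value for each gene feature. Each array held 21448 features, and 17709 of them carried 1 gene symbol, which gave 17687 distinct named genes. Nothing in the labels says that both control arrays came from separate cultures, so the difference between them may be technical. With 1 group of 2 arrays no test was made, and both values of each gene are given as array 1 and array 2. Array medians were 5.65 and 5.68, and values ran from 1.64 to 13.1 log2 units. Both arrays were alike across features, with a Pearson correlation of 0.9952 and a Spearman correlation of 0.9946, which describe features and not replicates. The absolute difference between arrays had a median of 0.13 and a 95th percentile of 0.45 log2 units, and 8 features differed by more than 1.

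Each gene was placed within the distribution of its own array. A gene in the top 25% lay at or above the 75th percentile of all features on both arrays, which was 7.34 on array 1 and 7.39 on array 2. This held for 4535 named genes, or 25.6%. Counts of listed genes in the top 25% are to be set against this share. Signal without transcript was gauged from 348 olfactory receptor genes, which belong to the nose and had medians of 2.7 and 2.73. Their 95th percentile was 4.383 on array 1 and 4.5225 on array 2. In all, 12247 named genes, or 69.2%, lay above that range on both arrays, and 4918, or 27.8%, lay within it on both. Of 44 genes restricted to other tissues, such as ALB of the liver (3.61 and 3.6), 0 reached the top 25% and 31 lay within the olfactory receptor range. Some of them still read between these bounds, with LHB of the pituitary at 7.21 and 6.95, PRM2 of sperm at 6.92 and 6.93 and HBA2 of red cells at 6.37 and 6.75. A value between the bounds therefore does not separate transcript from background here. Probes differ in how strongly they respond, so a percentile ranks signals and not transcript numbers, and no gene's level is set against that of another gene. Precision also differed along the scale, because the absolute difference between arrays had a median of 0.09 among genes of the top 25% and of 0.17 among genes within the olfactory receptor range.

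Carcinoma lines keep or lose features of the epithelium they came from. Epithelial cells are held together by E-cadherin junctions, desmosomes and tight junctions, whereas mesenchymal cells carry N-cadherin, vimentin filaments and a fibronectin matrix. Transcription factors of the ZEB, SNAI and TWIST families repress epithelial genes in the shift from the former to the latter. Ovarian carcinomas are usually recognised by PAX8, WT1 and MUC16, markers linked to the Müllerian duct, from which the fallopian tube and uterus form.

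HeyA8-MDR control cells gave strong signals for most genes of the mesenchymal list, but for few of the junction list. Of 5 simple epithelial keratins, 3 were strong. These lists were chosen with earlier results of these data known, so their shares describe the lists as drawn up. Of 45 mesenchymal genes measured, 29 lay in the top 25% (64.4%, against 25.6% of all named genes). Above the olfactory receptor range lay 44 (97.8%, against 69.2% of all named genes), and the list's medians were 8.86 and 8.81. VIM, which encodes the filament protein vimentin, read 11.97 and 12. The gene of the membrane-binding protein annexin A2, ANXA2, read 12.16 and 12.17 and was among the 25 brightest named genes. CDH2, which encodes N-cadherin, read 9.19 and 9.32, and the fibronectin gene FN1 read 10.19 and 10.25. All of these differed by no more than 0.13 between arrays. In RNA from a whole culture, a weak signal in every cell and a strong signal in a few cells cannot be told apart.

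The repressors of epithelial genes did not all lie in the same class. SNAI2 (9.87 and 9.74) and ZEB1 (9.76 and 9.8) were in the top 25% on both arrays. TWIST2 was there too (7.71 and 7.69), whereas TWIST1 read 7.31 and 7.14, under the bound on both arrays. ZEB2 read 6.22 and 6.08 and SNAI1 5.13 and 5.03, both between the bounds. CDH11, a cadherin of mesenchymal cells, was the only mesenchymal gene within the olfactory receptor range on both arrays, at 3.36 and 3.45. In all, 15 mesenchymal genes read between the bounds, the lowest of them TAGLN (4.96 and 5.1), THY1 (4.57 and 4.99) and FOXC2 (4.68 and 4.71).

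Of 39 epithelial junction and polarity genes, 5 were in the top 25% (12.8%, against 25.6% of all named genes). Another 18 lay within the olfactory receptor range, which held 27.8% of all named genes, and the list medians were 4.57 and 4.79. CDH1, the gene of E-cadherin, read 2.72 and 2.96. EPCAM, an adhesion molecule of epithelial cells, read 3.19 and 3.87. The splicing regulator ESRP1 read 3.31 and 3.36, and RAB25, a trafficking GTPase of epithelial cells, read 3.39 and 2.68. GRHL2, a transcription factor that maintains epithelial genes, read 4.07 and 4.08. All of them lay within the olfactory receptor range, so none had a signal that stood apart from that of the reference genes, and for EPCAM and RAB25 the arrays differed by more than 0.45. The top 25% held the tight junction genes CLDN1 (10.59 and 10.64), TJP1 (8.45 and 8.49) and MARVELD3 (7.95 and 8.04) and the desmosome genes DSG2 (8.3 and 8.39) and PKP2 (7.99 and 8.12).

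Keratins of simple epithelia were among the strong signals. KRT8 read 11.3 and 11.45, KRT18, its filament partner, 10.93 and 10.99, and KRT7 10.69 and 10.75. KRT80 read 7.36 and 7.18 and KRT19 5.33 and 5.55, between the bounds. Among 8 keratins of other epithelia, only KRT16 (7.71 and 7.67) was in the top 25% (12.5%, against 25.6% of all named genes). KRT14, a keratin of basal cells, lay within the olfactory receptor range at 3.83 and 3.51.

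**Figure D1:**
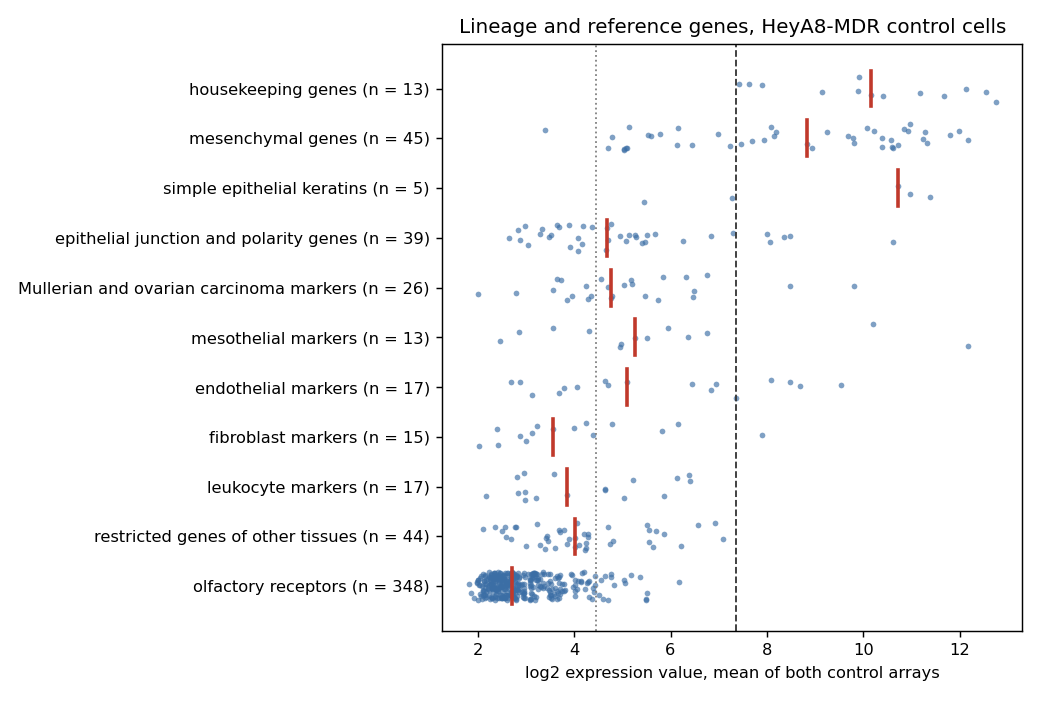
Log2 expression value of each measured gene (points, mean of both control arrays) in lists of lineage and reference genes, with the list median as a red bar, the bound of the olfactory receptor range as a dotted line and the bound of the top 25% as a dashed line, both averaged over the arrays. Mesenchymal genes lie mostly to the right of the dashed line (29 of 45), while epithelial junction genes spread down into the range of the olfactory receptors (18 of 39).

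Of 26 Müllerian and ovarian carcinoma markers, 2 were in the top 25% and 10 within the olfactory receptor range, which held 27.8% of all named genes. PAX8, a transcription factor of the Müllerian lineage, read 8.43 and 8.51. MECOM, a transcription factor gene often gained in ovarian carcinoma, read 9.71 and 9.89. WT1, a marker of serous carcinoma and of mesothelium, read 6.81 and 6.71, and SOX17 read 5.3 and 5.08. MUC16, which encodes the CA125 antigen, read 4.68 and 4.86, close above the olfactory receptor bound. The markers WFDC2 (3.92 and 3.78), FOLR1 (3.74 and 3.7) and MSLN (3.35 and 3.78) lay within the olfactory receptor range, as did the progesterone receptor PGR at 2.03 and 1.98. The share of these markers in the top 25% was 7.7%, against 25.6% of all named genes, so most markers of the labelled tumour type did not give a strong signal. Of 13 mesothelial markers, 2 were in the top 25% (15.4%, against 25.6% of all named genes) and 4 within the olfactory receptor range. The former were TM4SF1 (12.21 and 12.14), a tetraspanin-like membrane protein, and PDPN (10.27 and 10.12), which encodes podoplanin. CALB2, the gene of calretinin, read 5.82 and 6.09, between the bounds.

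Genes of embryonic patterning and of stem cells gave a few strong signals. HOX genes set the position of tissues along the body axis. In the top 25% were 2 of 23 (8.7%, against 25.6% of all named genes), HOXB2 (8.75 and 8.7) and HOXB7 (7.74 and 7.71). In all, 16 of 23 HOX genes (69.6%) lay above the olfactory receptor range, near the 69.2% of all named genes, and by cluster these were 1 of 1 HOXA, 7 of 8 HOXB, 2 of 6 HOXC and 6 of 8 HOXD genes. Among 17 stem cell factors, the chromatin proteins HMGA1 (11.22 and 11.08) and HMGA2 (7.64 and 7.64), the retinal-oxidising enzyme ALDH1A3 (9.85 and 9.85) and the RNA-binding proteins IGF2BP2 (9.62 and 9.73) and IGF2BP3 (7.61 and 7.52) were in the top 25%. These 5 of 17 genes (29.4%) were near the share of 25.6% of all named genes. The pluripotency factor NANOG (2.97 and 3.46) and the surface marker PROM1 (3.74 and 3.69) lay within the olfactory receptor range. Cancer testis antigens are genes of germ cells that some tumours switch on. Here 16 of 22 lay within the olfactory receptor range, PRAME (3.03 and 3.04) among them, against 27.8% of all named genes. Only the sperm protein gene SPA17 (7.88 and 7.91) was in the top 25% (4.5%, against 25.6% of all named genes).

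Markers of other cell types were read as a check on the culture. Of 17 leukocyte markers, 0 were in the top 25%, against 25.6% of all named genes. Within the olfactory receptor range were 9, among them PTPRC, the gene of the pan-leukocyte antigen CD45, at 2.9 and 2.77. The other 8 (47.1%, against 69.2% of all named genes) lay above it. They included NKG7 (6.49 and 6.33), CD79A (6.35 and 6.43) and TYROBP (6.05 and 6.22), which all read between the bounds. Of 15 fibroblast markers, 10 were within the olfactory receptor range, LUM (2.44 and 2.38) and FAP (3.15 and 2.86) among them, against 27.8% of all named genes. Only the collagen gene COL1A2 (7.99 and 7.79) was in the top 25% (6.7%, against 25.6% of all named genes). Among endothelial markers, ECSCR (9.57 and 9.5), a surface protein of endothelial cells, the receptor kinase TIE1 (8.5 and 8.88), EGFL7 (8.42 and 8.54), a secreted factor, and CDH5 (8.13 and 8.06), which encodes VE-cadherin, were in the top 25%. KDR, the main VEGF receptor of endothelium, read 2.8 and 2.58, PECAM1, which encodes CD31, 3.78 and 3.81, and TEK 3.08 and 3.16. KDR, PECAM1 and TEK lay within the olfactory receptor range, together with 3 further endothelial markers. Another 7 read between the bounds, among them ROBO4 (7.33 and 7.37), ERG (6.85 and 7.02) and VWF (6.45 and 6.45). In all, 4 of 17 endothelial markers (23.5%) were in the top 25%, near the 25.6% of all named genes, and 6 were within the olfactory receptor range.

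Cells attach to their matrix through integrins, heterodimers of an alpha and a beta chain, and to each other through cadherins, immunoglobulin-type receptors and tetraspanin complexes. Ovarian carcinoma spreads within the peritoneal cavity, where integrins, CD44 and matrix proteins take part in attachment to the mesothelium. Of 25 integrin genes, 5 were in the top 25% and 7 within the olfactory receptor range, near the shares of all named genes of 25.6% and 27.8%. Those in the top 25% were the shared beta chain ITGB1 (10.82 and 10.76) and the alpha chains ITGA6 (9.49 and 9.68), ITGA3 (9.37 and 9.52), ITGA5 (8.13 and 8.27) and ITGA2 (7.51 and 7.77). All of these alpha chains pair with ITGB1, the first pair in laminin receptors, ITGA5 in the fibronectin receptor and ITGA2 in a collagen receptor. ITGAV read 6.16 and 6.33, between the bounds. ITGB4, the partner of ITGA6 in hemidesmosomes, read 3.53 and 3.38, and ITGB6 (2.28 and 2.85) and ITGB8 (2.4 and 2.5) were also within the olfactory receptor range.

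Among 26 cadherins and catenins, 13 lay within the olfactory receptor range, which held 27.8% of all named genes. In the top 25% were 5 (19.2%, against 25.6% of all named genes). Beside CDH2 and CDH5, these were the catenins CTNNB1 (10.18 and 10.35) and CTNNA1 (9.88 and 10.04), which link cadherins to actin, and CTNND2 (7.84 and 7.72). Of 44 other adhesion molecules, 17 were in the top 25% (38.6%, against 25.6% of all named genes). They included the hyaluronan receptor CD44 (10.62 and 10.61), basigin (BSG, 10.62 and 10.61), the heparan sulfate proteoglycan SDC4 (10.42 and 10.26), ALCAM (10.15 and 10.21) and the tetraspanins CD63 (9.55 and 9.54), CD151 (9.47 and 9.4) and CD9 (9.5 and 9.36). VCAM1, which endothelium and mesothelium use to bind leukocytes, lay within the olfactory receptor range at 3.52 and 3.72.

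The matrix genes in the top 25% included several matricellular proteins, which modulate cell behaviour. Of 44 matrix proteins other than collagens and laminins, 9 were in the top 25% (20.5%, against 25.6% of all named genes). SPARC, a collagen-binding glycoprotein, read 10.7 and 10.75, and thrombospondin 1 (THBS1), an inhibitor of angiogenesis, read 10.35 and 10.53. CCN2 (10.2 and 10.31) and CCN1 (9.76 and 9.87), matricellular targets of YAP, and TGFBI (9.66 and 9.69), a target of TGF-beta, were strong as well. POSTN, LUM and NID2 lay within the olfactory receptor range, the last at 2.5 and 2.33. Of 41 collagen genes, 7 were in the top 25% (17.1%, against 25.6% of all named genes). Among them were the basement membrane collagen COL4A2 (8.23 and 8.44), the transmembrane collagen COL23A1 (8.26 and 8.13) and COL6A1 (8.13 and 8.13). COL1A1, whose product forms the type I fibril together with that of COL1A2, read 6.11 and 6.2. Only LAMC1 (9.24 and 9.28) of 8 laminin genes was in the top 25% (12.5%, against 25.6% of all named genes).

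**Figure D2:**
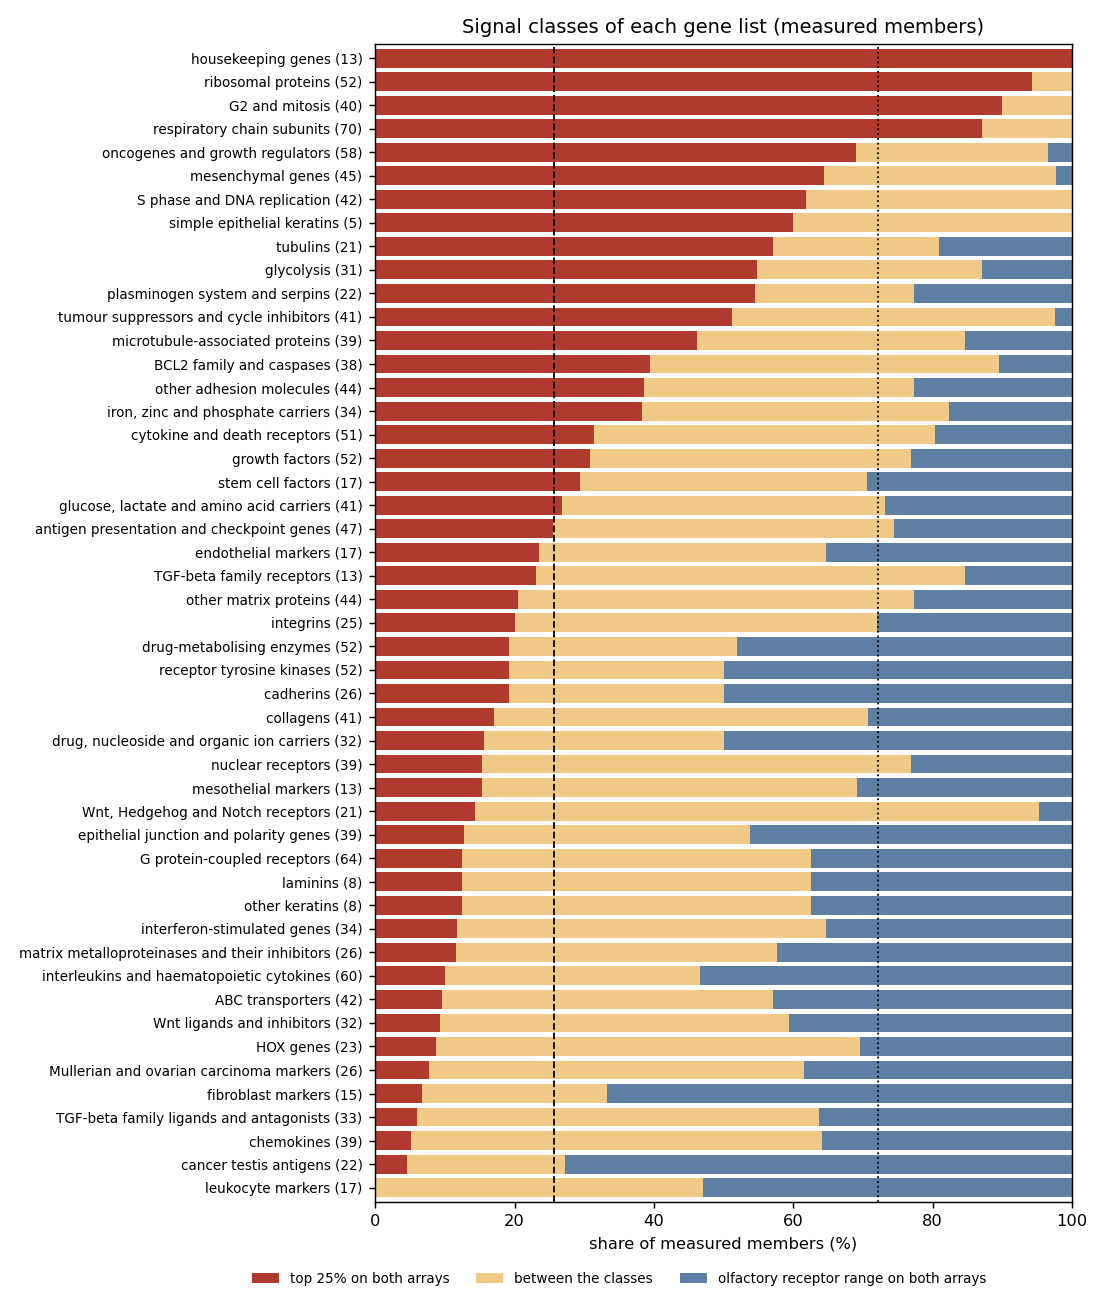
Share of each list's measured genes (number in parentheses) in the top 25% of signals on both arrays (red), within the olfactory receptor range on both arrays (blue) and between these classes (yellow); the dashed line is the 25.6% of all named genes in the top 25% and the dotted line leaves the 27.8% of all named genes in the olfactory receptor range to its right. Ribosomal protein, mitosis and respiratory chain genes have the largest red shares after the housekeeping genes, and no leukocyte marker is in the top 25%.

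Receptor tyrosine kinases pass signals of growth factors across the membrane. Of 52 measured, 10 were in the top 25% (19.2%, against 25.6% of all named genes). Another 26 lay within the olfactory receptor range, which held 27.8% of all named genes. AXL, the receptor of GAS6 and a kinase of mesenchymal carcinoma cells, read 10.91 and 11.01. The EGF receptor EGFR read 9.28 and 9.35, the ephrin receptors EPHB1 8.43 and 8.57 and EPHA2 8.3 and 8.32, and the hepatocyte growth factor receptor MET 7.94 and 7.97. The Wnt co-receptor RYK (8.91 and 8.94), IGF1R (7.67 and 7.87), the collagen receptor DDR2 (7.54 and 7.8), FGFR4 (7.48 and 7.64) and TIE1 completed this group. ERBB3 (3.11 and 3.11), KIT (2.4 and 2.66) and FLT1 (2.62 and 2.95) were within the olfactory receptor range, and so were PDGFRA (4.36 and 4.42) and PDGFRB (4.1 and 3.89). Signals of the ligands were read on the same arrays. GAS6, the ligand of AXL, was in the top 25% at 7.78 and 7.94, whereas HGF, the ligand of MET, lay within the olfactory receptor range at 3.69 and 4.06.

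Of 13 receptors of the TGF-beta family, 3 (23.1%) were in the top 25%, near the 25.6% of all named genes. The brightest was endoglin (ENG, 11.24 and 11.25), a co-receptor best known from endothelium. The type II receptor TGFBR2 read 9.53 and 9.52 and the type I receptor TGFBR1 8.2 and 8.35, so both chains of the signalling complex were in the top 25%. AMHR2, the receptor of anti-Müllerian hormone, was within the olfactory receptor range at 3.14 and 3.24. Of 51 cytokine and death receptors, 16 were in the top 25% (31.4%, against 25.6% of all named genes). TNFRSF12A, the receptor of TWEAK, read 10.98 and 10.98. Among TRAIL receptors the decoy TNFRSF10D (10.14 and 10.26) and the death receptors TNFRSF10B (8.35 and 8.32) and TNFRSF10A (7.88 and 7.86) were in the top 25%. The TNF receptor TNFRSF1A (9.47 and 9.57), the decoy receptor IL13RA2 (9.08 and 9.17) and IL6ST (9.06 and 9.11), the signalling chain shared by the interleukin 6 family, were there too. IL1R1, the signalling receptor of interleukin 1, lay within the olfactory receptor range at 3.45 and 3.6.

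G protein-coupled receptors sense lipids, proteases, hormones and chemokines. Of the 64 measured, 8 were in the top 25% (12.5%, against 25.6% of all named genes). S1PR1, a receptor of sphingosine 1-phosphate that is known for its part in endothelial barrier function, read 10.35 and 10.26. The adhesion receptor ADGRG1 read 8.77 and 8.86, and LPAR3, a receptor of the lysophosphatidic acid found in ovarian cancer ascites, read 8.42 and 8.5. The thrombin receptor F2RL3 (8.37 and 8.51) and the prostacyclin receptor PTGIR (7.86 and 7.79) were also in this class. GNRHR, the receptor of gonadotropin-releasing hormone, lay within the olfactory receptor range at 2.39 and 2.32. The chemokine receptors CXCR1 (2.3 and 2.68) and CXCR2 (4.11 and 3.86), which bind CXCL8, were within it as well, and CXCR4 read 5.85 and 5.56.

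Of 21 Wnt, Hedgehog and Notch receptors, 3 were in the top 25% (14.3%, against 25.6% of all named genes), and 17 read between the bounds. The former were the frizzled receptors FZD1 (10.09 and 10.02) and FZD6 (9.4 and 9.49) and NOTCH2 (9.35 and 9.54). Of 39 nuclear receptors, 6 were in the top 25% (15.4%, against 25.6% of all named genes). Among them were the vitamin D receptor VDR (8.62 and 8.88) and the glucocorticoid receptor NR3C1 (7.99 and 8.04). The oestrogen receptor gene ESR1 read 5.15 and 4.93 and ESR2 3.45 and 2.96.

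**Figure D3:**
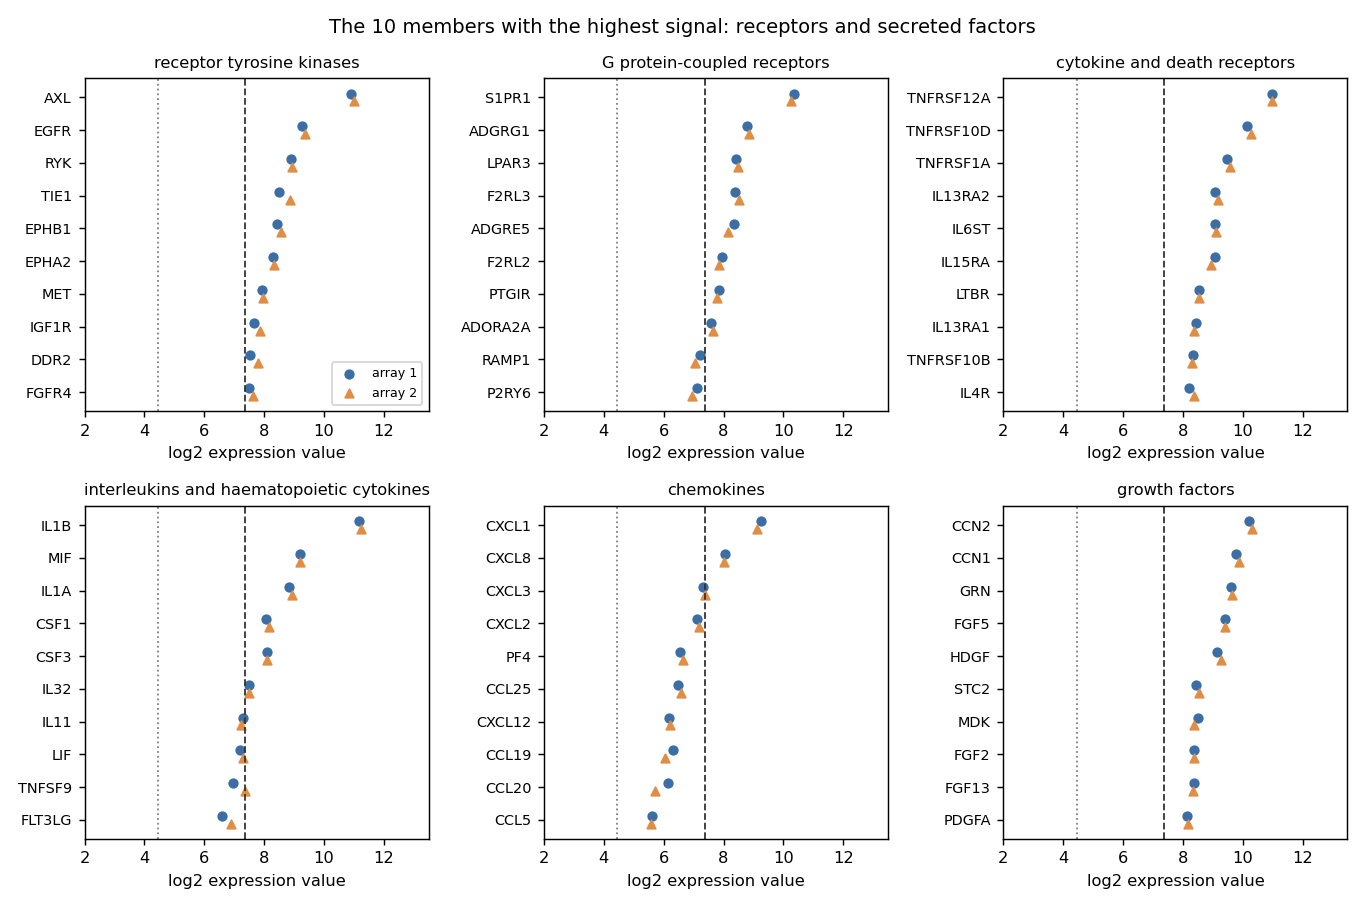
Log2 expression value on array 1 (circles) and array 2 (triangles) of the 10 members with the highest mean signal in 3 lists of receptors and 3 lists of secreted factors; the dotted line is the bound of the olfactory receptor range and the dashed line that of the top 25%. Both arrays lie close together for each gene, and only CXCL1 and CXCL8 among chemokines pass the dashed line on both.

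Secreted cytokines can act on the tumour cells themselves, on endothelium and on immune cells. Both forms of interleukin 1, a cytokine of inflammation, were in the top 25%, with IL1B at 11.18 and 11.24 and IL1A at 8.82 and 8.92. Its natural antagonist IL1RN lay within the olfactory receptor range at 3.15 and 3.06. Of 60 interleukins and haematopoietic cytokines, 6 were in the top 25% (10%, against 25.6% of all named genes). Beside IL1B and IL1A these were MIF (9.19 and 9.2), the colony-stimulating factors CSF1 (8.05 and 8.16) for macrophages and CSF3 (8.11 and 8.08) for granulocytes, and IL32 (7.48 and 7.49). IL11 (7.3 and 7.23) and LIF (7.18 and 7.29), members of the interleukin 6 family, read just under that bound. IL6 itself read 4.24 and 3.83, within the olfactory receptor range. In total 32 cytokines lay in that range, IFNG (2.87 and 3.01) and IL18 (2.59 and 2.46) among them, against 27.8% of all named genes.

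Of 39 chemokines, 14 lay within the olfactory receptor range, which held 27.8% of all named genes, and 23 read between the bounds. In the top 25% were 2 (5.1%, against 25.6% of all named genes). These were CXCL1 (9.25 and 9.13) and CXCL8 (8.06 and 8.03), which attract neutrophils and promote angiogenesis. The related CXCL3 read 7.31 and 7.38 and CXCL2 7.11 and 7.19. The interferon-induced chemokines CXCL9 (3.25 and 2.79), CXCL10 (2.29 and 2.57) and CXCL11 (2.7 and 2.89), which attract T cells, were within the olfactory receptor range. The macrophage attractant CCL2 read 4.76 and 4.63, close above its bound.

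Of 52 growth factors, 16 were in the top 25% (30.8%, against 25.6% of all named genes). Beside CCN2 and CCN1 these included progranulin (GRN, 9.62 and 9.65), the fibroblast growth factors FGF5 (9.4 and 9.4) and FGF2 (8.36 and 8.36), HDGF (9.14 and 9.27), the stanniocalcin STC2 (8.44 and 8.53) and midkine (MDK, 8.49 and 8.38). VEGFA (7.77 and 7.85) and VEGFC (7.8 and 7.77), ligands of the endothelial VEGF receptors, were in the top 25%. The angiopoietins, ligands of TEK, were within the olfactory receptor range, with ANGPT1 at 3.69 and 3.67 and ANGPT2 at 3.29 and 3.17. EREG, a ligand of EGFR, read 3.12 and 2.9.

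Of 33 TGF-beta family ligands and antagonists, 2 were in the top 25% (6.1%, against 25.6% of all named genes). INHBA, the subunit of activin A, read 10.33 and 10.29 and TGFB1 8.03 and 8.32. The activin antagonist FST read 4.99 and 5.23 and the BMP antagonist GREM1 7.07 and 7.17, both between the bounds. Among 32 Wnt ligands and inhibitors, 3 were in the top 25% (9.4%, against 25.6% of all named genes). They were the antagonists DKK1 (9.25 and 9.19) and SFRP1 (8.32 and 8.39) and the ligand WNT5B (8.23 and 8.25). WNT3A, a ligand of the canonical branch, lay within the olfactory receptor range at 3.64 and 3.74.

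Cell surface proteolysis runs through the plasminogen system, which forms plasmin from plasminogen, and through matrix metalloproteinases. Of 22 genes of the plasminogen system and serpins, 12 were in the top 25% (54.5%, against 25.6% of all named genes). The list medians were 7.73 and 7.765. The activator urokinase (PLAU) read 10.69 and 10.74 and its receptor PLAUR 9.22 and 9.33. S100A10, which binds plasminogen together with ANXA2, read 11.38 and 11.19, and the tissue-type activator PLAT read 8.5 and 8.6. TFPI2, a serine protease inhibitor of the matrix, read 10.75 and 10.92, and tissue factor (F3) 7.92 and 8.06. PLG, the gene of plasminogen, which the liver makes, was within the olfactory receptor range at 3.86 and 3.99. Of 26 matrix metalloproteinases and inhibitors, 3 were in the top 25% (11.5%, against 25.6% of all named genes). They were the inhibitor TIMP1 (10.2 and 10.32) and the membrane-bound enzymes MMP14 (10.04 and 10.16) and MMP16 (7.71 and 7.78). MMP2, which MMP14 activates, read 4.66 and 4.79 and MMP9 5.28 and 5.29, while MMP7 (2.3 and 2.53) was within the olfactory receptor range.

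Resistance to taxanes has several known routes, of which drug efflux by P-glycoprotein, the product of ABCB1, is the best described. Taxane uptake by organic anion transporters, altered tubulin isotypes or microtubule-associated proteins, and inactivation by CYP2C8 and CYP3A4 in the liver are others. ABCB1 read 7.68 and 7.77, in the top 25%, at the 79.46th percentile of array 1. Of 42 ABC transporters, 4 were in the top 25% (9.5%, against 25.6% of all named genes). Another 18 lay within the olfactory receptor range, which held 27.8% of all named genes. The others in the top 25% were ABCE1 (10.35 and 10.39), a ribosome recycling factor that is no transporter, the peroxisomal ABCD3 (8.04 and 8.19) and ABCC4 (7.84 and 7.95), an exporter of organic anions. ABCB4, the close paralogue of ABCB1 that moves phospholipids into bile, read 5.32 and 4.85. Among other efflux pumps of drugs, ABCC10 read 6.78 and 6.8, ABCC2 3.23 and 3.23 and ABCG2 2.59 and 3.14, the last pair within the olfactory receptor range. ABCC1 was not among the 42 measured, so its level is not known here.

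Among 32 carriers of drugs, nucleosides and organic ions, 5 were in the top 25% (15.6%, against 25.6% of all named genes). Another 16 lay within the olfactory receptor range, which held 27.8% of all named genes. SLCO1B3, an organic anion transporter of hepatocytes that can take up paclitaxel, read 9.39 and 9.56. Its paralogue SLCO1B1 was within the olfactory receptor range at 4.29 and 4.14. The copper importer SLC31A1 (9.97 and 9.99), the folate carrier SLC19A1 (9.03 and 8.99) and the nucleoside carrier SLC29A1 (8.0 and 8.12) were in the top 25%. The copper ATPases ATP7A (3.56 and 3.87) and ATP7B (3.98 and 4.07), which export copper, were not above background.

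**Figure D4:**
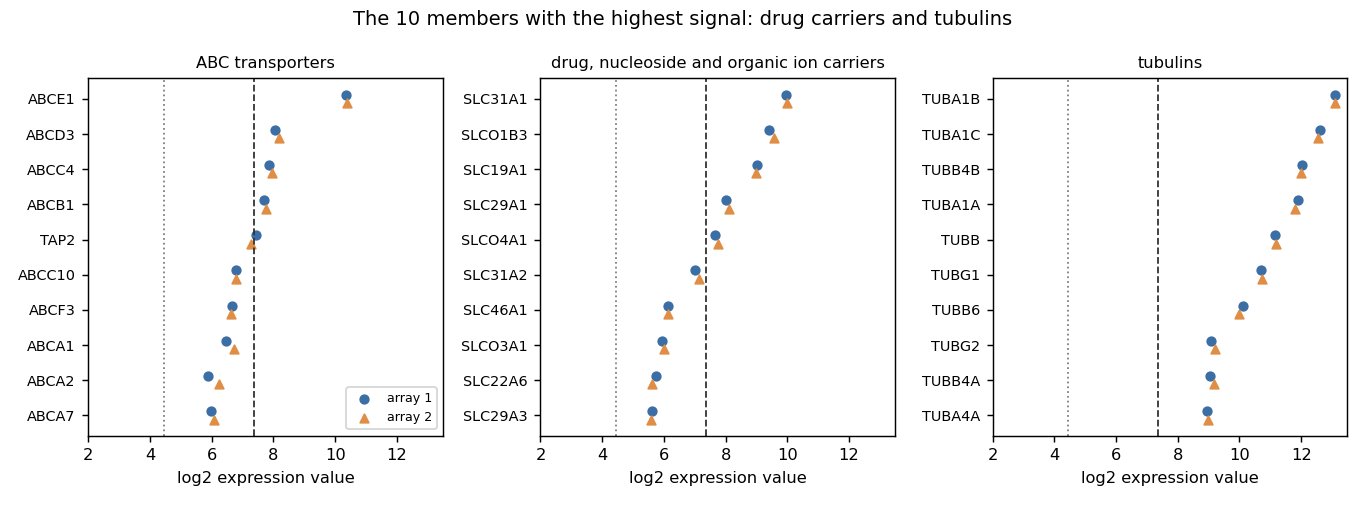
Log2 expression value on array 1 (circles) and array 2 (triangles) of the 10 members with the highest mean signal among ABC transporters, other drug carriers and tubulins; the dotted line is the bound of the olfactory receptor range and the dashed line that of the top 25%. ABCB1 lies just to the right of the dashed line at 7.68 and 7.77, and all 10 tubulins shown lie to its right.

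Microtubules are polymers of alpha and beta tubulin dimers, and paclitaxel binds the beta chain. Of 21 tubulin genes, 12 were in the top 25% (57.1%, against 25.6% of all named genes), with list medians of 8.49 and 8.38. These 12 include the gamma tubulins TUBG1 (10.69 and 10.74) and TUBG2 (9.09 and 9.22). The beta tubulin TUBB3 was not among the 21 measured, so its level is not known here. TUBA1B was the brightest named feature of both arrays at 13.1 and 13.09. The other alpha chains TUBA1C and TUBA1A read 12.61 and 12.56, and 11.91 and 11.8. Of beta tubulins, TUBB4B read 12.02 and 11.99, TUBB 11.16 and 11.19 and TUBB6 10.1 and 10. TUBB2A read 6.39 and 6.47, and TUBB2B (3.97 and 4.06) and the platelet isotype TUBB1 (2.97 and 2.95) were within the olfactory receptor range. Tubulin genes are closely similar in sequence, so probes of 1 gene may also read another.

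Of 39 genes listed as microtubule-associated proteins, 18 were in the top 25% (46.2%, against 25.6% of all named genes). These 18 include TXNDC5 (9.09 and 9.15), an enzyme of the endoplasmic reticulum and not a microtubule-associated protein. MAP1B (10.26 and 10.29) and MAP4 (10.22 and 10.24) stabilise microtubules, MAPRE1 (10.14 and 10.22) tracks their growing ends and TPX2 (10 and 10.07) builds the mitotic spindle. MAPT, which encodes tau and competes with taxanes for microtubules, read 5.09 and 5.45, and the neuronal MAP2 was within the olfactory receptor range at 3.96 and 3.94. Of 52 drug-metabolising enzymes, 10 were in the top 25% (19.2%, against 25.6% of all named genes). Another 25 lay within the olfactory receptor range, which held 27.8% of all named genes. The glutathione transferases GSTP1 (10.08 and 10.16) and MGST1 (9.86 and 9.77) and the quinone reductase NQO1 (8.78 and 8.73) were in the top 25%. The taxane-inactivating enzymes CYP3A4 (2.49 and 2.32) and CYP2C8 (2.51 and 2.45) were within the olfactory receptor range.

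Growing cells take up glucose, amino acids and metals through carriers. Of 41 carriers of glucose, lactate and amino acids, 11 were in the top 25% (26.8%, near the 25.6% of all named genes). They included the glutamine carriers SLC38A1 (10.3 and 10.47) and SLC1A5 (7.87 and 7.97), the arginine carrier SLC7A1 (10.1 and 10.28), both chains of the leucine exchanger, SLC7A5 (9.77 and 10) and SLC3A2 (10.1 and 10.17), and the glucose carrier SLC2A1 (9.43 and 9.5). The cystine carrier SLC7A11 read 6.02 and 6.13, between the bounds. Of 34 genes of iron, zinc and phosphate handling, 13 were in the top 25% (38.2%, against 25.6% of all named genes). Among them were the ferritin light chain FTL (10.66 and 10.66), the transferrin receptor TFRC (10.1 and 10.22) and the phosphate carrier SLC20A1 (9.25 and 9.21).

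Cells prepare for division by copying DNA in S phase and then sort the copies on the mitotic spindle, and the genes of the latter step are switched on together in G2. Of 40 genes of G2 and mitosis, 36 were in the top 25% (90%, against 25.6% of all named genes). The list's medians were 8.85 and 8.855. ANLN, which acts in cytokinesis, read 11.16 and 11.17. The mitotic kinases PLK1 (11.07 and 10.99) and AURKA (10.77 and 10.68) and CDC20 (10.73 and 10.8), an activator of the anaphase-promoting complex were in the top 25% too. CCNB1, the cyclin of mitotic entry, read 10 and 10.14, and the proliferation marker MKI67 10.14 and 10.27. The genes outside the top 25% were CDC25C (6.63 and 6.87), NEK2 (7.21 and 7.27), NUF2 (7.22 and 7.34) and MAD2L1 (7.37 and 7.21).

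S phase genes copy the DNA. Of the 42 measured, 26 were in the top 25% (61.9%, against 25.6% of all named genes). All 42 lay above the olfactory receptor range, against 69.2% of all named genes. The ribonucleotide reductase subunits RRM1 (10.69 and 10.88) and RRM2 (10.19 and 10.22), thymidylate synthase (TYMS, 10.51 and 10.56) and the helicase subunit MCM4 (10.42 and 10.41) were among the strong signals. The DNA polymerase subunits POLE (5.61 and 5.59) and POLA1 (6.08 and 5.88) read between the bounds. Genes of protein synthesis and energy supply were read next. Of 52 ribosomal protein genes, 49 were in the top 25% (94.2%, against 25.6% of all named genes). The exceptions were the tissue-restricted variants RPL3L (7.17 and 7.16), RPL39L (5.61 and 5.88) and RPL10L (4.7 and 4.53). Ribosomal protein genes have many processed copies in the genome, so their features may also read those. Of 70 respiratory chain subunits, 61 were in the top 25% (87.1%, against 25.6% of all named genes). The subunits COX4I2 (5.67 and 5.79) and COX7A1 (5.66 and 5.65), forms of particular tissues, read between the bounds. Of 31 glycolysis genes, 4 were within the olfactory receptor range and 17 in the top 25% (54.8%, against 25.6% of all named genes). The latter included GAPDH (12.75 and 12.76), ENO1 (12.01 and 12.06) and LDHA (11.62 and 11.65). The kinases PDK4 (3.01 and 3.14) and PDK3 (3.68 and 3.77), which restrain the entry of pyruvate into mitochondria, were within the olfactory receptor range.

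Of 58 oncogenes and growth regulators, 40 were in the top 25% (69%, against 25.6% of all named genes). The AP-1 factor FOSL1 read 11.13 and 11.02, cyclin D1 (CCND1) 10.69 and 10.62 and its kinase CDK4 10.04 and 10.18. MDM2, an inhibitor of p53, read 9.94 and 10 and MYC 9.86 and 9.91. MYCN (3.19 and 3.26) and ID2 (4.12 and 3.97) were within the olfactory receptor range. Of 41 tumour suppressors and inhibitors of the cycle, 21 were in the top 25% (51.2%, against 25.6% of all named genes). Among them were RB1 (9.56 and 9.72), SMAD3 (9.43 and 9.44) and the cyclin-dependent kinase inhibitor CDKN1A (8.84 and 8.85). The only member within the olfactory receptor range on both arrays was MTAP, a methionine salvage enzyme, at 3.12 and 3.31. Its neighbours on chromosome 9, the cell cycle inhibitors CDKN2A (4.48 and 4.62) and CDKN2B (5.98 and 6.05), read between the bounds. CDKN2A lay close above the olfactory receptor bound.

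Survival genes of the BCL2 family and caspases had 15 of 38 members in the top 25% (39.5%, against 25.6% of all named genes). The protective members MCL1 (10.44 and 10.51) and BCL2L1 (9.19 and 9.28) and the pore-forming BAX (9.82 and 9.92) were in this class. BCL2 read 6.15 and 6.22. RIPK3, the kinase of necroptosis, lay within the olfactory receptor range at 2.52 and 2.8.

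Of 47 genes of antigen presentation and immune checkpoints, 12 were in the top 25% (25.5%, near the 25.6% of all named genes). The complement regulators CD59 (10.52 and 10.6), CD55 (10.27 and 10.3) and CD46 (9.19 and 9.26) and B2M, the light chain of class I molecules (9.88 and 9.92), were strong. The checkpoint ligand CD274, which encodes PD-L1, read 5.81 and 6.08. The class II chain HLA-DRA (2.78 and 3.14) and the costimulatory ligand CD86 (2.28 and 2.11) were within the olfactory receptor range. Probes of HLA genes can read related alleles and genes. Of 34 interferon-stimulated genes, 4 were in the top 25% (11.8%, against 25.6% of all named genes). They were the membrane proteins IFITM3 (11.37 and 11.22), IFITM2 (10.49 and 10.39) and IFITM1 (8.46 and 8.48), which are closely similar in sequence, and SAMHD1 (7.78 and 7.6). Another 12 were within the olfactory receptor range, including IFI44L (2.3 and 2.49), BST2 (2.5 and 2.44) and IFIT1 (2.89 and 3.31).

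The levels were set beside the promoter sequences of the same genes. Promoters rich in CpG pairs belong mostly to genes used by many tissues, whereas genes of restricted tissues often start in CpG-poor sequence. RefSeq promoters on GRCh38.p14 were matched by gene identifier for 14250 of 17687 named genes, or 80.6%, and the 250 bases before the first listed start were read. When these genes were ranked by mean level into 10 equal groups, the dimmest group had a median of 3.0 CpG pairs per promoter and the brightest 21.0. The median rose over the dimmer groups and lay between 20 and 22 from the sixth group upwards. The interquartile ranges were 1.0 to 14.0 in the dimmest and 15.0 to 28 in the brightest group. The median share of G and C in these windows was 46.4% in the dimmest and 64.4% in the brightest group, and its part in the signal was not tested. This describes genes of these arrays, which are not independent of each other.

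Short motifs differed between lists. A pair of elements is known from genes of G2 and mitosis, the CCAAT box, which binds the factor NF-Y, and the cell cycle genes homology region, TTTGAA in its core, which binds the DREAM and MuvB complexes. Motifs were searched as these letters on both strands, and each motif was scored as present or not on its own, also where matches overlapped. CCAAT was present in 27 of 34 matched promoters of G2 and mitosis genes (79.4%) against 34.6% of all matched promoters, and TTTGAA in 19 (55.9%) against 10.7%. Both were present in 17 of 34 (50%), against 598 of all 14250 (4.2%). Some other lists also lay above the shares of all promoters. CCAAT was in 7 of 9 matched promoters of HOX genes, and both motifs in 3 of them. TTTGAA was in 4 of 8 matched promoters of fibroblast markers and in 92 of 280 of olfactory receptors, with both motifs in 36 of the latter. The E-box CACCTG, which ZEB and SNAI factors bind, was present in 10 of 23 matched promoters of epithelial junction and polarity genes (43.5%) against 16.9% of all. The other 16 genes of that list, CDH1, EPCAM and ESRP1 among them, were not matched. CACCTG was also in 13 of 40 matched promoters of growth factors (32.5%) and 12 of 39 of drug-metabolising enzymes (30.8%). A match describes letters in this window and is not a measured site, and the lists were chosen by function.

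The promoters of 3 mitotic genes of the top 25% and of RAB25, within the olfactory receptor range, are printed to show these motifs in place. Each gives the 150 bases before the start on the plus strand of GRCh38.p14 from RefSeq, 5′ to 3′, with matches in capitals. CDC20 lies at chr1:43358831-43358980, PLK1 at chr16:23678739-23678888, CCNB1 at chr5:69167000-69167149 and RAB25 at chr1:156061010-156061159.
CDC20: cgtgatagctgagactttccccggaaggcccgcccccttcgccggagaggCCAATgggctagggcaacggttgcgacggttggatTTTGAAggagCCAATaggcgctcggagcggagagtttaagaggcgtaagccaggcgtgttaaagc
PLK1: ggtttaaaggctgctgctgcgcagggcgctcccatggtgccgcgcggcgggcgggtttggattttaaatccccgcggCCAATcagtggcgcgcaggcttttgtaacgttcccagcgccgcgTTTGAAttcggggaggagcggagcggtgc
CCNB1: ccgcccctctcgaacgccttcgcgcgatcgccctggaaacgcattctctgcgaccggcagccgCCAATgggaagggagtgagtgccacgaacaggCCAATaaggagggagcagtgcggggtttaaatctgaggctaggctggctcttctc
RAB25: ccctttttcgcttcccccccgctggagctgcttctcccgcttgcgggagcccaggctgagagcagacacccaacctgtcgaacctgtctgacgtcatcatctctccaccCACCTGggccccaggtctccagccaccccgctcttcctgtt

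In the CDC20 promoter the capitals mark CCAAT, then TTTGAA and then a further CCAAT, with first bases 100, 65 and 55 bases before the start. In PLK1 they mark CCAAT at 73 and TTTGAA at 29 bases before the start. CCNB1 has CCAAT at 87 and 55 bases, and RAB25 has CACCTG at 41 bases. All 3 mitotic genes read at least 10 on both arrays, and RAB25 read 3.39 and 2.68. These genes were picked by hand as examples, and whether a motif has a part in the level of a gene was not tested.

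**Figure D5:**
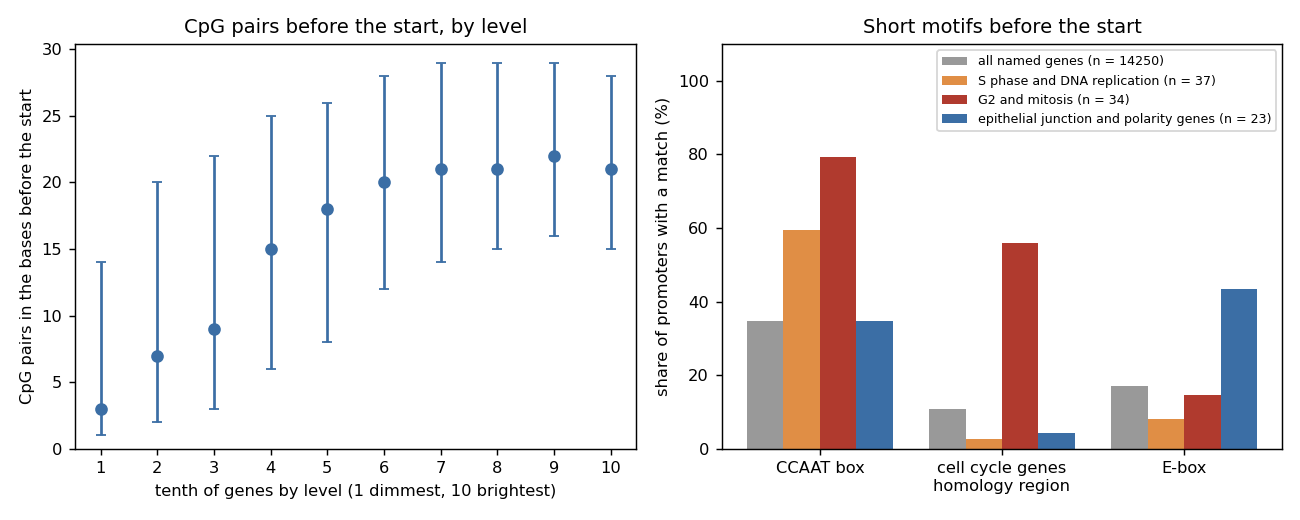
Left, CpG pairs in the 250 bases before the start (points, median; bars, interquartile range) for 14250 genes ranked by mean level into 10 groups from dimmest to brightest. Right, share of promoters in percent with the CCAAT box, the cell cycle genes homology region (TTTGAA) or the E-box (CACCTG) for all matched genes and for 3 lists; the E-box is most frequent in the epithelial junction list (43.5%) and the other motifs in the G2 and mitosis list (79.4% and 55.9%).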

How the data were processed

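Total RNA of HeyA8-MDR cells was read on Clariom S arrays. The authors deposited log2 expression values from RMA, in which background is corrected, arrays are normalized to each other and the probes of a feature are combined. Transcriptome Analysis Console 4.0 was the tool, per the submitters' processing notes, and neither its settings nor the annotation build are given in the sources used here. RMA makes array distributions alike by design. Only the 2 control arrays were used, and the values were taken as deposited, without a filter. Symbols came from the platform annotation, 3739 features stayed unnamed, and the brighter feature stood for a gene with several. Percentiles, classes and counts came from Python 3.11.15, pandas 2.3.3 and numpy 2.4.6, and the code was tested on simulated data. The number of arrays limits the precision. No detection calls were used, so the olfactory receptors stood in for background.

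The members and the 51 gene lists, 2 of them background references, were chosen with earlier results of these data known. Named genes were the 25 brightest, the 10 with the largest difference between arrays and, per list, up to 8 highest and 4 lowest members, all members above the olfactory receptor range where these were 15 or fewer, and some marked in the list. ABCB4, ABCC2, ABCG2, ALB, ANGPT1, ANGPT2, ATP7A, ATP7B, CCL2, CXCL9, CXCR2, ERBB3, FAP, FGFR4, FLT1, FST, GAS6, HGF, IFNG, IL1R1, IL1RN, ITGAV, PECAM1, PROM1, SLCO1B1, TWIST2 and WNT3A fall outside this rule and were named after their values were seen. Alternatives were other bounds, quantile normalization, the dimmer feature of a gene and each array alone.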

Additional observations from a re-analysis of the deposited data

How the results depend on the processing

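No paired analysis was possible because no result comes from a test and only 1 group was described. Counts above the olfactory receptor range and in the top 25% were each recomputed for 52 results. Leaving out either array, quantile normalization of both arrays, or the dimmer feature of a gene moved 0 of them by over 1.5 times. The dimmer feature could change little, because 17709 features stood for 17687 named genes. Quantile normalization could change little either, because RMA had already normalized the arrays to each other. A top 20% or top 30% in place of the top 25% moved 3 of 52 counts each. With the 99th percentile of the olfactory receptors as the bound, 16 of 52 counts above it moved, and 9 Müllerian markers, 9 epithelial junction genes and 4 leukocyte markers lay above. With the 95th percentile of the restricted genes of other tissues, 38 of 52 moved, and the counts were 6611 named genes, 672 list members, 3 Müllerian markers, 7 epithelial junction genes, 7 endothelial markers, 0 leukocyte markers and 1 fibroblast marker. A higher bound lets fewer genes pass by construction, so statements on genes between the bounds depend on it, whereas counts in the top 25% do not use it. Over features above the olfactory receptor range the correlation between arrays was 0.9937.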

Other observations

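Some of the brightest features belong to gene groups outside the lists above. The metallothionein genes MT2A (12.71 and 12.62) and MT1B (12.23 and 12.08), whose products bind zinc and copper, and the core histone genes H2AC14 (12.09 and 12.09) and H2BC12 (11.96 and 12.05) were among the 25 brightest named genes. FXYD5 (12.19 and 12.14), a regulator of the sodium pump, and SSR3 (12.3 and 12.22), a subunit of the translocon-associated complex of the endoplasmic reticulum, were too. Metallothionein and histone genes form families of close copies, so a feature may read several of them.

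Genes around MTAP on chromosome 9 and around ABCB1 on chromosome 7 were read after the values of MTAP and ABCB1 had been seen, with gene order from RefSeq on GRCh38.p14. On chromosome 9, 13 of 14 interferon alpha and omega genes, which are induced by virus, lay within the olfactory receptor range, as did DMRTA1 (3.61 and 3.87) and ELAVL2 (2.83 and 2.98). Of the other neighbours, MLLT3 (8.56 and 8.79), HACD4 (7.69 and 7.91), CAAP1 (8.07 and 7.96) and PLAA (7.61 and 7.64) were in the top 25%. ACER2 (5.42 and 5.46), FOCAD (5.56 and 5.76), TUSC1 (5.29 and 5.29) and KLHL9 (6.49 and 6.31), which lies among the interferon genes, read between the bounds. SLC24A2 (3.04 and 2.74), IZUMO3 (2.15 and 2.69) and IFT74 (4.23 and 3.73) were within the olfactory receptor range. On chromosome 7, the neighbours RUNDC3B (8.44 and 8.4), DBF4 (8.89 and 9.02), SRI (9.92 and 10.07), TMEM243 (10.31 and 10.37) and DMTF1 (9.61 and 9.67) were in the top 25%, and ADAM22 (5.81 and 6.08), CROT (7.24 and 6.98), SLC25A40 (7.47 and 7.09) and ABCB4 were not. DNA copy number was not measured.

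By gene type, 26.1% of 17249 protein-coding genes were in the top 25%, against 10 of 306 long non-coding RNA genes. Among unnamed features 17.6% of 3739 were in the top 25%. The named features with the largest differences between arrays were AFG1L (3.74 and 4.82), MID1 (3.39 and 4.46), SULT1C3 (3.2 and 2.16) and SH2D1B (4.34 and 3.31), and the 10 such features lay below the top 25%.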
